A study of Rattus norvegicus with 6 samples.

Results

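The comparison described here sets a high sucrose diet against a low fat diet in rat liver, with protein held equal, over 4 of the 6 arrays of a study of dietary protein, sucrose and fat. Adult male Wistar rats, an outbred laboratory strain, ate a normal protein low fat diet (NP), a normal protein high sucrose diet (NP-HS), a high protein low fat diet (HP) or a high protein high sucrose diet (HP-HS) for 5 weeks. The remaining diets, NP-HS-HF and HP-HS-HF, combined high sucrose with high fat, and their values are given beside the others. All 30 rats were first adapted to the normal protein diet for 10 days, and every liver was taken in the fed state, 2 h after a meal fixed at 87.6 kJ. Each array held the pooled RNA of 5 rats, so a diet has no replicate pool and the spread between rats is not seen. The number of arrays limits the precision. The animals are taken as rats, as the labels' organism and growth entries say, although the source entries speak of mice.

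Each protein level gave 1 difference, NP-HS minus NP and HP-HS minus HP, and these 2 differences share no array. Values are log2 expression values, so a difference of 1 is a doubling. A gene was followed where both differences had the same sign, and the mean of the 2 is given with its SE from a limma model fitted to all 6 arrays. Of 11421 named genes tested, 5087 had the same sign in both pairs, 2545 higher with sucrose (22.3%) and 2542 lower (22.3%), and 6331 had opposite signs (55.4%). The counts of gene lists given later stand beside these shares. Hepatocyte markers were strong on every array: albumin (Alb) read 13.81 on the NP array, 13.82 on NP-HS, 13.79 on HP and 13.85 on HP-HS, and the mean over 12 hepatocyte markers lay between 12.86 and 12.95 on the 6 arrays.

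Sucrose is split in the gut into glucose and fructose, and much of the fructose is taken up by the liver. Ketohexokinase phosphorylates it there, and the products enter glycolysis below the step that phosphofructokinase controls. In the rodent liver, the sugar-sensing factor ChREBP and the insulin-driven factor SREBP-1c are known to raise genes of sugar breakdown and fatty acid synthesis after carbohydrate-rich feeding. Liver cells also hold pathways for cholesterol synthesis, bile acid synthesis and interferon responses.

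No probe set passed the test of the mean difference. With limma and Benjamini-Hochberg adjustment, 0 of 20450 probe sets (0%) had an adjusted p under 0.05, and the lowest adjusted p was 0.464. Before adjustment, p lay under 0.05 for 617 probe sets, and 1022 is the number that chance alone would give. With the 4 arrays of the contrast alone, 3 probe sets passed, all lower with sucrose, with a lowest adjusted p of 0.00692. The groups below are therefore given as values and counts, and for each of the 47 genes described first the limma adjusted p was 1.

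At 1.2-fold or more in both pairs, 19 named genes were higher with sucrose (0.166% of those tested) and 28 were lower (0.245%). At the same size 83 named genes (0.727%) had opposite signs in the 2 pairs, 49 of them higher with sucrose at normal protein. Genes of opposite sign thus outnumbered those of equal sign at this size. At 1.5-fold or more in both pairs stood 1 gene, Ly6al, on the lower side (0.00876%), and 0 on the higher side (0%), while 4 genes had opposite signs. Across the named genes the differences of the 2 pairs correlated at Pearson r = -0.12 and Spearman rho = -0.13, a description across genes, which are not independent replicates. The threshold of 1.2-fold is 0.263 on the log2 scale. Galectin-3 (Lgals3) lay just inside it on the higher side with a smaller difference of 0.266, and Ebag9 just outside with 0.262. On the lower side the adhesion receptor Pvr lay just inside and the lipid phosphatase Inpp4b just outside, with mean differences of -0.31 and -0.27.

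**Figure D1:**
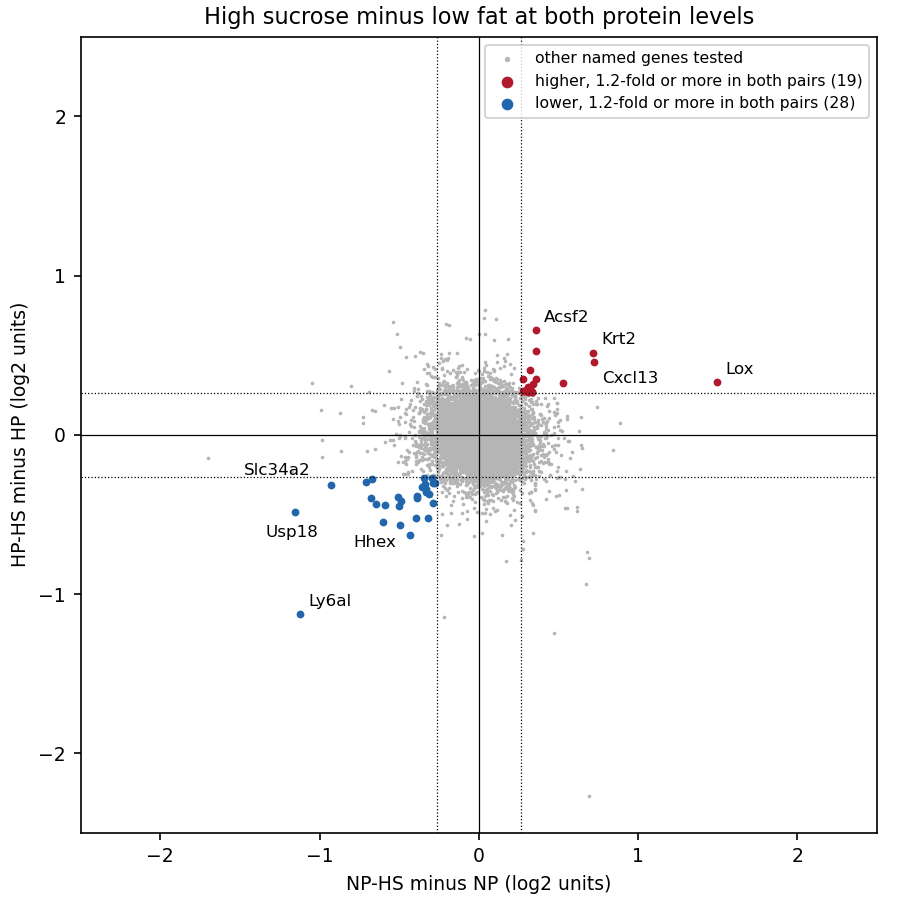
Each point is 1 of the 11421 named genes tested, with the log2 difference NP-HS minus NP on the horizontal axis and HP-HS minus HP on the vertical axis; dotted lines mark 1.2-fold. The 19 genes in red and 28 in blue reached 1.2-fold with the same sign in both pairs, and Ly6al lies apart at -1.12 and -1.13. The grey cloud has no upward slope, and r across these genes was -0.12.

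Both sucrose arrays stood above both low fat arrays, or both below, in 34 of the 47 genes, and the arrays overlapped in 13. Among all named genes, 25.2% had no overlap in either direction. The 47 were picked by the size of these same differences, so the 2 shares cannot be read against each other. The mean difference of the 47 ranged in size from 0.28 to 1.12 with a median of 0.39. It passed 1.5-fold in 6 genes and 2-fold in 1.

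Among the 19 higher genes, the 1 with the widest mean difference was Lox, lysyl oxidase, the enzyme that starts the cross-linking of collagen and elastin. Lox read 5.41 on the NP array, 6.90 on NP-HS, 6.67 on HP and 7.00 on HP-HS. The mean difference of the 2 pairs was 0.91 ± 0.244 (SE of the limma fit to 6 arrays) or 1.88-fold. Both sucrose arrays stood above both low fat arrays, and the NP array lay far below the other 3. The difference was 1.5 at normal protein and 0.33 at high protein, and the fitted mean without the NP array was 0.48. With fat added to the sucrose, Lox read 7.55 on NP-HS-HF and 8.23 on HP-HS-HF, the 2 highest of the 6 arrays.

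Krt2, a type II keratin best known from skin, read 4.51 on NP, 5.23 on NP-HS, 5.16 on HP and 5.67 on HP-HS (mean difference 0.62 ± 0.149 SE). Cxcl13, the chemokine that attracts B cells, read 5.48, 6.20, 5.64 and 6.10 on the same arrays in that order (0.59 ± 0.154 SE). For both genes the sucrose arrays lay above the low fat arrays with no overlap, and the NP-HS-HF and HP-HS-HF arrays read 5.17 and 5.19 for Krt2 and 6.11 and 5.60 for Cxcl13. Krt2 lay near the filter on low values, a mean over the 6 arrays above log2 5.14, and its NP array read below it. The NP-HS and HP-HS arrays lift that mean over the filter, so the place of Krt2 among the genes tested rests on them. All 15 macrophage markers measured passed the filter on low values. Their mean was 8.26 on NP, 8.38 on NP-HS, 8.50 on HP and 8.55 on HP-HS. Of 14 lymphocyte markers 7 passed the filter, with a mean between 6.80 and 6.83 on the 4 arrays. The part of either cell type in Cxcl13 was not tested. In bulk liver RNA, fewer cells of a type and less RNA per cell cannot be told apart.

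Acsf2, Idi1 and Vnn1 were 3 more of the 19 higher genes. Acsf2, an acyl-CoA synthetase of medium-chain fatty acids, read 7.68 on NP, 8.03 on NP-HS, 8.34 on HP and 8.99 on HP-HS (0.51 ± 0.131 SE). Its low fat and sucrose arrays overlapped, because the HP array lay above the NP-HS array, and the HP-HS array was the highest of the 6. Idi1, the isopentenyl diphosphate isomerase of the sterol pathway, read 6.08, 6.61, 6.57 and 6.90 in that order (0.43 ± 0.111 SE), with no overlap. Vnn1, the pantetheinase vanin-1 that breaks down pantetheine and is a PPAR alpha target, read 9.29 on NP and 9.65 on NP-HS, then 8.11 on HP and 8.46 on HP-HS. Its 2 differences, 0.36 and 0.35, were close to each other although the protein levels lay more than 1 log2 unit apart, so the arrays overlapped. With fat added, Vnn1 read 9.34 on NP-HS-HF and 8.27 on HP-HS-HF, between the low fat and sucrose values at each protein level.

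The other higher genes had smaller mean differences. Pclaf, a PCNA-binding factor of DNA replication, read 5.16 on NP, 5.51 on NP-HS, 4.87 on HP and 5.40 on HP-HS (0.44 ± 0.118 SE). Tfdp2, a dimer partner of E2F factors, read 6.89, 7.21, 6.73 and 7.14 in the same order (0.37 ± 0.083 SE). Neither gene's low fat and sucrose arrays overlapped. Pclaf lay near the filter of log2 5.14, with its HP array below it. The NP-HS and HP-HS arrays are part of the mean by which Pclaf passed. Reep6, a protein that shapes endoplasmic reticulum membranes, read 11.33 on NP, 11.67 on NP-HS, 11.59 on HP and 11.91 on HP-HS (0.33 ± 0.158 SE), again with no overlap. Mean differences from 0.28 to 0.31 were found for Hmgb1-ps2, Mark1, Smad9, Slc26a2, Irx4, Med31, Ccnjl, Anxa3, Kctd18 and Lgals3. Smad9 transduces BMP signals, Slc26a2 carries sulfate, Med31 is a Mediator subunit and Lgals3 is galectin-3, a lectin that macrophages make. Hmgb1-ps2 is named as a pseudogene, and its probes may also bind the RNA of the parent gene.

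Ly6al, a gene of the Ly6 family of small surface proteins, stood lowest among the 28 lower genes. It read 7.28 on NP and 6.15 on NP-HS, then 5.87 on HP and 4.75 on HP-HS, differences of -1.12 and -1.13 and a mean of 2.18-fold lower. The 2 pairs gave nearly the same difference, and the arrays overlapped because the HP array lay below the NP-HS array. Its HP-HS array read below the filter of log2 5.14. The SE was 0.478 in the fit to 6 arrays, in which the fat-containing arrays lay the other way round by protein, at 5.34 on NP-HS-HF and 5.99 on HP-HS-HF. With the 4 arrays alone it was 0.09, and Ly6al passed there with a limma adjusted p of 0.031. Ly6 genes form a family of similar sequences, so the probe set's signal may not come from 1 gene.

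Hhex, a homeobox factor needed for liver and bile duct development, read 9.63 on NP, 9.03 on NP-HS, 9.02 on HP and 8.47 on HP-HS (-0.57 ± 0.141 SE). The sucrose array was the lower at each protein level, with the HP array level with NP-HS, and the fat-containing arrays read 8.67 and 8.60. Of 23 hepatocyte transcription factors tested, 6 were higher in both pairs, 6 lower in both and 11 of opposite sign, with a median mean difference of 0. Foxa2, a pioneer factor of the liver, stood at -0.27 ± 0.115 SE with differences of -0.24 and -0.29. Cebpb, a factor of the fed, fasted and acute phase liver, stood at 0.25 ± 0.099 SE. Neither reached 1.2-fold in both pairs, and neither had overlapping arrays.

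Acsm3, also among the 28 lower genes, is a mitochondrial synthetase that activates medium-chain fatty acids. It read 8.22 on NP, 7.54 on NP-HS, 7.99 on HP and 7.60 on HP-HS (-0.54 ± 0.107 SE). Both sucrose arrays lay below both low fat arrays, and with fat added the reading was 8.42 on NP-HS-HF and 8.54 on HP-HS-HF, above all 4. Of 10 genes of the Acsm family and acyl conjugation tested, Acsm3 was the 1 at 1.2-fold in both pairs; 3 were higher in both pairs, 3 lower and 4 of opposite sign. Thus Acsm3 was lower with sucrose while Acsf2, which also activates medium-chain acids, was higher.

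Cyp7b1, the oxysterol 7-alpha-hydroxylase of the alternative bile acid pathway, read 7.41 on NP, 6.91 on NP-HS, 8.22 on HP and 7.83 on HP-HS (-0.45 ± 0.120 SE). The arrays overlapped because both high protein arrays lay above both normal protein arrays. Of 24 genes of bile acid and sterol handling tested, 11 were lower in both pairs, 5 higher and 8 of opposite sign, with a median mean difference of -0.02. Cyp7a1, the rate-limiting enzyme of the classical pathway, stood at -0.08 ± 0.147 SE and Cyp8b1, which makes cholic acid, at -0.09 ± 0.079 SE. The bile salt export pump Abcb11 was at 0.10 in each pair. Nr0b2, the repressor SHP, had -0.08 at normal protein and 0.41 at high protein.

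Pycr1, the last enzyme of proline synthesis, read 6.39 on NP, 6.01 on NP-HS, 6.47 on HP and 6.07 on HP-HS (-0.39 ± 0.110 SE), with no overlap. Hdc, the decarboxylase that makes histamine, read 6.42, 6.03, 5.96 and 5.57 in that order, a difference of -0.39 in each pair, with overlap between the diets. The sodium phosphate carrier Slc34a2 read 7.71 on NP, 6.78 on NP-HS, 6.05 on HP and 5.74 on HP-HS (-0.62 ± 0.246 SE). Its difference was wider at normal protein (-0.93) than at high protein (-0.32), and the arrays overlapped. Without the NP array its fitted mean was -0.17. Slc25a30, a mitochondrial carrier, had differences of -0.59 and -0.44 with no overlap, but its SE of 0.516 is as wide as its mean of -0.51: the HP-HS-HF array read 9.73, far above the NP-HS-HF array at 7.80.

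The lower genes also included Gadd45g, Atf3 and Fos. Gadd45g, a growth arrest and DNA damage gene, read 8.25 on NP, 7.82 on NP-HS, 8.14 on HP and 7.51 on HP-HS (-0.53 ± 0.168 SE), and Atf3, a stress-induced transcription factor, read 7.91, 7.59, 8.09 and 7.56 in that order (-0.42 ± 0.193 SE). In neither did the diets overlap. Fos, an immediate early gene, read 6.83, 6.49, 7.36 and 7.05 (-0.32 ± 0.094 SE), with overlap. In the wider list of the unfolded protein and integrated stress response, 17 of 33 genes tested (51.5%) were lower in both pairs and 3 were higher, against 22.3% of all named genes in each direction. Its median was -0.09 at normal protein and -0.04 at high protein, beside 0.01 and -0.01 over all named genes. Atf3 was the only member of the 33 at 1.2-fold in both pairs. The chaperone Hspa5 stood at -0.12 ± 0.099 SE, and Derl3 and Sdf2l1, both of protein quality control in the endoplasmic reticulum, stood at -0.40 ± 0.333 SE and -0.32 ± 0.198 SE. Asns, the asparagine synthetase that the integrated stress response is known to raise, stood on the other side at 0.23 ± 0.091 SE. The NP array was the highest of the 6 for 22 of these 33 genes (66.7%), against 16.3% of all named genes.

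The other lower genes had mean differences from -0.28 to -0.54. Or7a39, an olfactory receptor gene, had the lowest unadjusted limma p of the 47 named genes, 0.00072, and read 5.41 on NP, 4.77 on NP-HS, 5.75 on HP and 5.31 on HP-HS. Its readings lay near the filter of log2 5.14, and the NP-HS array fell below it. Cav2, a caveolin, had -0.50 and -0.45, and a second probe set of Cav2 had a mean of -0.48 as well. RT1-N2, a class I histocompatibility gene, had -0.49 and -0.57, and its family members are alike in sequence, so its probes may bind several of them. The remaining ones were Coro2b, Nova1, Pno1, Lax1, Btnl7, Efhd1, Slc17a8, Pvr, Defb37, Krtap1-5 and Crip3. Nova1 regulates splicing, Pno1 takes part in ribosome assembly, and Slc17a8 is a vesicular glutamate transporter.

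**Figure D2:**
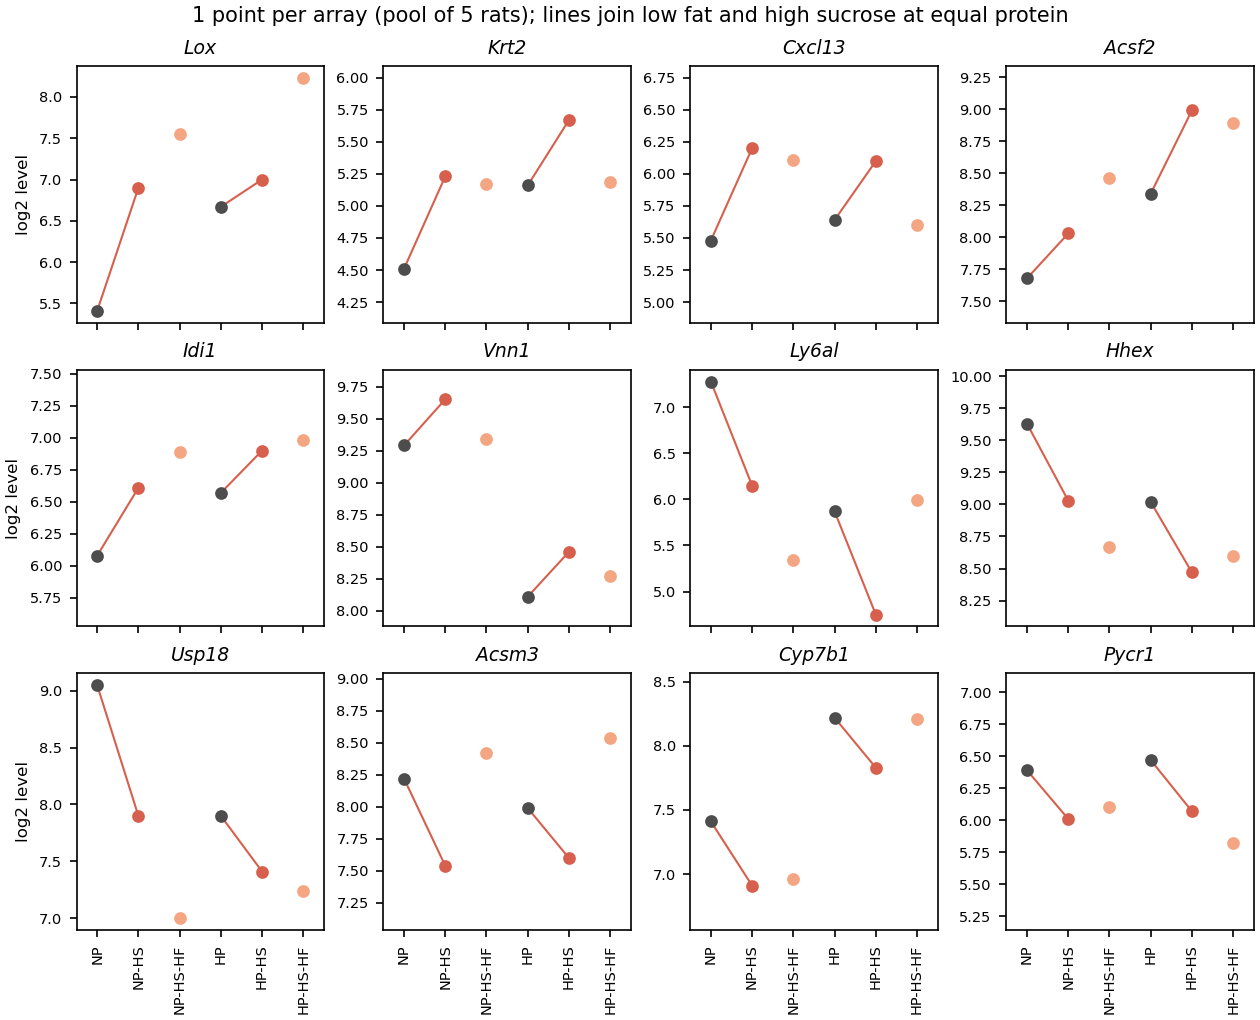
Log2 level of 12 genes on the 6 arrays, 1 point per array (pool of 5 rats), with a red line joining low fat to high sucrose at each protein level; each panel has its own vertical axis and there are no error bars, since a diet has 1 array. Lox, Krt2, Cxcl13, Acsf2, Idi1 and Vnn1 go up along both lines, and Ly6al, Hhex, Usp18, Acsm3, Cyp7b1 and Pycr1 go down. In Lox, the line at normal protein spans 1.5 and that at high protein 0.33.

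Among interferon-stimulated genes, 13 of 30 tested lay lower with sucrose in both pairs, and the widest differences were those at normal protein. Usp18, the protease that removes the ubiquitin-like ISG15 and damps interferon signalling, read 9.05 on NP, 7.90 on NP-HS, 7.90 on HP and 7.41 on HP-HS (-0.82 ± 0.288 SE). Oas1a, a 2'-5'-oligoadenylate synthase of antiviral defence, read 8.57, 7.90, 7.71 and 7.44 in that order (-0.47 ± 0.297 SE). In both the NP array was the highest of all 6 and the low fat and sucrose arrays overlapped. Herc6, a ligase for ISG15 in rodents, read 7.72, 7.02, 7.02 and 6.72 (-0.50 ± 0.163 SE). It is not among the 30 listed genes.

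Of the 30 interferon-stimulated genes tested, 13 (43.3%) were lower in both pairs, 3 (10%) higher and 14 of opposite sign, and over all named genes the shares were 22.3%, 22.3% and 55.4%. Usp18 and Oas1a were the 2 at 1.2-fold in both. The list's median was -0.09 at normal protein and -0.12 at high protein. The size of the difference was uneven within the list. Mx2, a dynamin-like antiviral protein, read 9.03 on NP and 7.33 on NP-HS, but 7.26 on HP and 7.11 on HP-HS. Ifit1, which binds foreign RNA, read 6.50, 5.32, 5.18 and 4.95 in that order, and Isg15, the ubiquitin-like modifier, 7.69, 6.70, 6.50 and 6.36. In all 3 the NP array stood apart above the other 5. Their differences at normal protein were -1.70, -1.17 and -0.98, and at high protein -0.15, -0.23 and -0.14. The HP-HS array of Ifit1 read below the filter of log2 5.14. Without the NP array the fitted mean difference was -0.30 for Usp18, -0.02 for Oas1a, -0.22 for Herc6 and -0.08 for Mx2.

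Across the 30 genes the NP array was the highest of the 6 for 17 (56.7%, against 16.3% of all named genes) and the lowest for 0. The list's median deviation from each gene's mean was 0.14 on NP, 0.05 on NP-HS, 0.03 on HP and -0.10 on HP-HS. It was -0.18 on NP-HS-HF and -0.08 on HP-HS-HF. Of 15 macrophage markers, 8 were higher with sucrose in both pairs and 0 lower, against 22.3% of all named genes in each direction. The NP array was the lowest of the 6 for 5 of the 15, against 17.4% of all named genes. The part of immune cells in the interferon values was not tested.

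The promoters of some of these genes are shown because the genes lay on the same side in both pairs and hold a common letter pattern. The pattern searched was GAAA, any 2 bases and GAAA again, on either strand, the core letters of an interferon response element; it was chosen after the values were seen. The promoters come from RefSeq on the GRCr8 assembly. Among the 13 listed interferon genes lower in both pairs, 8 had a promoter in the table, and 6 of these 8 held the pattern in the 100 bases before the start site, against 1.09% of all named genes tested and 1.22% of all promoters given. The 4 with the lowest mean difference among those 6 follow, 5′ to 3′ on the gene's strand, with the pattern in capitals; overlapping matches run together.
Irf7, chr1:205800024-205800123, minus strand: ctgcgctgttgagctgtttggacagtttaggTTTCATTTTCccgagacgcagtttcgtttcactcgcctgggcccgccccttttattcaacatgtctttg
Oas1a, chr12:41330366-41330465, plus strand: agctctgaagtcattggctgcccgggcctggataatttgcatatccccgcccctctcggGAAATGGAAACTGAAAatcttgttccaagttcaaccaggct
Oas1b, chr12:41395853-41395952, minus strand: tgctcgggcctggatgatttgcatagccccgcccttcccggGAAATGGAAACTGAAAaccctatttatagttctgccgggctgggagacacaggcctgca
Ifit3, chr1:241527226-241527325, plus strand: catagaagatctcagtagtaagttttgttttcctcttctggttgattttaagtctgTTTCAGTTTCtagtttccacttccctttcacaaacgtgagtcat

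Oas1a and its paralogue Oas1b hold the same capital stretch, 2 overlapping matches each, and their RNAs are similar enough that probes may bind both. Irf7, the factor that amplifies the interferon response, stood at -0.48 ± 0.212 SE, Oas1b at -0.34 ± 0.176 SE and Ifit3 at -0.30 ± 0.106 SE. In the longer window of 250 bases before to 50 after the start, 15 of 20 listed interferon genes with a promoter held the pattern (75%), against 3.01% of all named genes, whichever way they differed between diets. A match is a stretch of letters and not a shown binding site. Among the 47 genes at 1.2-fold, 36 had a promoter: 14 of the higher and 22 of the lower ones. CACGTG, an E-box that ChREBP-type factors can bind, was in 1 of the 14 (7.14%) and 2 of the 22 (9.09%), beside 9.14% of all named genes tested. TCACNCCAC, the sterol regulatory element, was in 1 of the 14 and 0 of the 22, beside 1.21%. It was in 0 of the 18 promoters of the cholesterol synthesis and SREBP2 target list.

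Cholesterol synthesis genes had a positive median difference at normal protein and 1 near 0 at high protein. Over 22 genes tested the median was 0.14 at normal protein and 0.00 at high protein, with 7 higher in both pairs, 1 lower and 14 of opposite sign. Idi1, described above, was the 1 at 1.2-fold in both. Tm7sf2, a sterol C14 reductase, read 7.82 on NP, 8.56 on NP-HS, 8.90 on HP and 9.07 on HP-HS (0.46 ± 0.144 SE). Sqle, the squalene epoxidase, read 5.81, 6.66, 7.21 and 7.11 in that order (0.38 ± 0.213 SE). In both the NP array was the lowest and the high protein arrays lay above both normal protein arrays. Msmo1 and Cyp51, which remove methyl groups from lanosterol and its products, had 0.65 and 0.52 at normal protein and -0.08 and 0.02 at high protein. The NP array was the lowest of the 6 for 14 of the 22 genes (63.6%, against 17.4% of all named genes) and the highest for 0. Whether the 2 pairs differ cannot be tested with 1 array per diet.

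**Figure D3:**
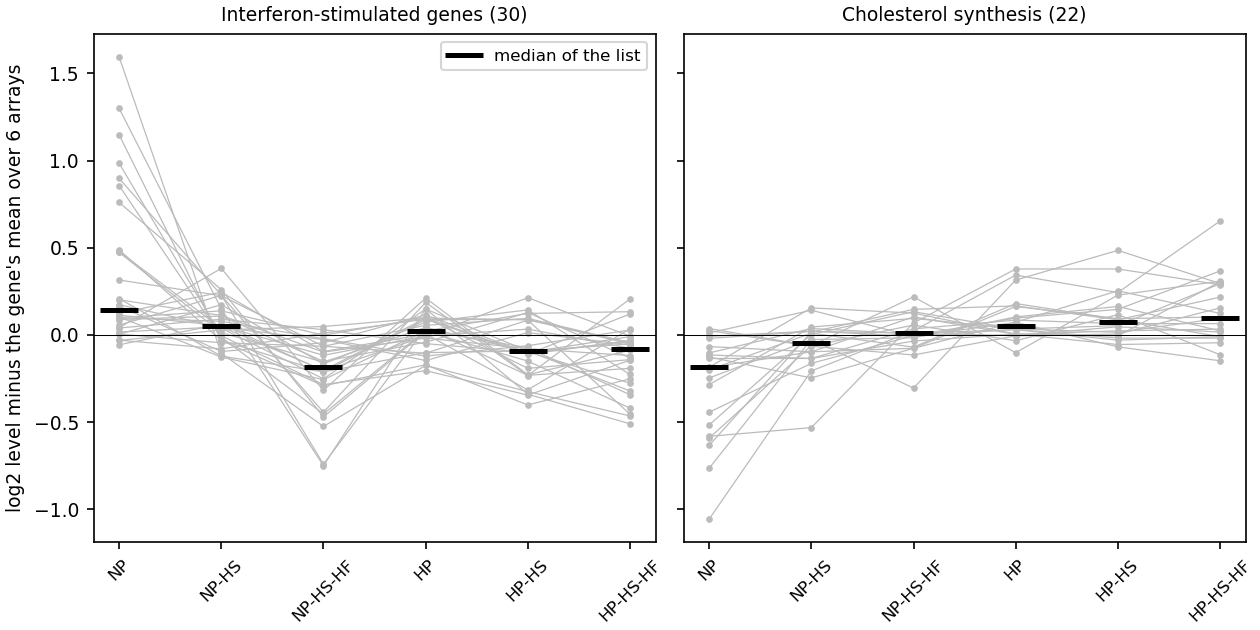
Log2 level minus the gene's mean over 6 arrays for the 30 interferon-stimulated genes (left) and the 22 cholesterol synthesis genes (right); a grey line joins the values of 1 gene, the arrays have no order, and the black bar is the list's median on that array. The median of the interferon genes is highest on NP at 0.14 and lowest on NP-HS-HF at -0.18, and that of the cholesterol genes is lowest on NP at -0.18.

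Of the genes through which sugar enters liver metabolism, none reached 1.2-fold with the same sign in both pairs. Single pairs differed more: the retinal dehydrogenase Aldh1a1 had -0.54 at normal protein and 0.71 at high protein. Of 12 genes of fructose entry and breakdown tested, 2 were higher in both pairs, 4 lower and 6 of opposite sign, with a median mean difference of -0.01. Khk, the ketohexokinase that commits fructose to breakdown, read 10.37 on NP, 10.28 on NP-HS, 10.16 on HP and 10.20 on HP-HS (-0.03 ± 0.082 SE), and the glucose and fructose carrier Slc2a2 stood at 0.02 and -0.02. The fructose carrier Slc2a5 stood at -0.27 ± 0.106 SE, with -0.45 at normal protein and -0.09 at high protein. Tkfc, the triose kinase that acts on the product of fructose cleavage, was at -0.14 ± 0.080 SE. A p above the threshold does not show that these genes were alike on both diets.

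Of 27 genes of glycolysis, glucose sensing and ChREBP targets tested, 10 were lower in both pairs, 3 higher and 14 of opposite sign, with 0 at 1.2-fold in both. Pklr, the liver pyruvate kinase and a classical ChREBP target, read 10.62 on NP, 10.46 on NP-HS, 10.13 on HP and 9.97 on HP-HS, a difference of -0.16 in each pair. Each pair lay the same way, with the sucrose array lower, and the protein levels lay further apart than the diets. Mlxipl, which encodes ChREBP, had -0.21 at normal protein and 0.02 at high protein. Pnpla3, a lipid droplet hydrolase regulated by ChREBP and SREBP-1c, had -0.99 and 0.16. The E-box CACGTG was in the promoters of 8 of 25 genes of this list (32%), beside 9.14% of all named genes tested. These genes were counted whichever way they differed between diets, and the list was chosen to hold ChREBP targets.

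Of 8 genes of the pentose phosphate pathway and NADPH supply tested, 3 were higher in both pairs and 0 lower, with medians of 0.04 at normal protein and 0.22 at high protein. Malic enzyme Me1, which makes NADPH for fatty acid synthesis, was at 0.19 ± 0.092 SE. Of 20 genes of fatty acid synthesis tested, 4 were higher in both pairs, 3 lower and 13 of opposite sign, with a median mean difference of 0.02. Fasn, the fatty acid synthase, had -0.22 at normal protein and 0.13 at high protein. Scd, the delta-9 desaturase, had -0.21 and 0.48, and Acacb, the acetyl-CoA carboxylase that makes malonyl-CoA at mitochondria, 0.26 and 0.09. Of 40 genes of triglyceride assembly, lipid droplets and secretion tested, 7 were higher in both pairs, 10 lower and 23 of opposite sign.

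Fatty acid oxidation and PPAR alpha target genes were higher with sucrose in both pairs for 15 of 34 tested (44.1%) and lower for 6, against 22.3% of all named genes in each direction. The median mean difference was 0.03, and Vnn1 was the 1 at 1.2-fold in both. Acaa2, the mitochondrial thiolase of beta-oxidation, read 12.01 on NP, 12.23 on NP-HS, 11.85 on HP and 12.10 on HP-HS (0.24 ± 0.096 SE), with no overlap. Cpt1a, which controls fatty acid entry into mitochondria, stood on the other side at -0.12 ± 0.082 SE, and Pdk4, a kinase that restrains glucose oxidation, at -0.24 ± 0.299 SE. Of 14 glycogen genes tested, 1 was higher in both pairs, 5 lower and 8 of opposite sign, where 55.4% of all named genes had opposite signs. Stbd1, which binds glycogen, was at 0.20 ± 0.080 SE, the liver phosphorylase Pygl at -0.14 ± 0.080 SE, and the glycogen synthase Gys2 had 0.19 at normal protein and -0.31 at high protein.

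Collagen, matrix and cross-linking genes were higher with sucrose in both pairs for 14 of 30 tested (46.7%) and lower for 3. Both sucrose arrays lay above both low fat arrays for 12 of the 30 and below for 2, where 12.7% and 12.5% of all named genes did so. The differences were small: the median was 0.03 at normal protein and 0.08 at high protein, and Lox was the 1 at 1.2-fold in both. Ccn2, a matricellular growth factor, stood at 0.20 ± 0.088 SE, Col3a1 at 0.11 ± 0.080 SE and Col1a1 at 0.07 ± 0.081 SE. Timp1, an inhibitor of matrix proteases, stood on the other side at -0.22 ± 0.105 SE. Markers of stellate cells and fibroblasts, a list that shares collagen genes with this one, were higher in both pairs for 6 of 13 tested and lower for 1. Their mean level was 8.20 on NP, 8.22 on NP-HS, 8.20 on HP and 8.27 on HP-HS. The part of these cells in the matrix values was not tested.

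Macrophage and Kupffer cell markers were higher in both pairs for 8 of 15 (53.3%) and lower for 0, where 22.3% of all named genes lay each way, with medians of 0.10 at normal protein and 0.06 at high protein. The macrophage gene Aif1 read 6.94 on NP, 7.30 on NP-HS, 7.32 on HP and 7.38 on HP-HS. Lyz2, a lysozyme, had 0.31 and 0.10, the scavenger receptor Cd163 0.27 and 0.07, and Marco, another scavenger receptor, 0.19 and 0.11. The HP-HS array was the highest of the 6 for 10 of the 15 (66.7%, against 14.9% of all named genes). None of the 15 was at 1.2-fold in both pairs, and only Lyz2 had no overlap between the diets. The mean over the markers was 8.26 on NP, 8.38 on NP-HS, 8.50 on HP and 8.55 on HP-HS. Of 12 hepatocyte markers 4 were higher in both pairs and 1 lower, with medians of 0.01 and 0.02.

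**Figure D4:**
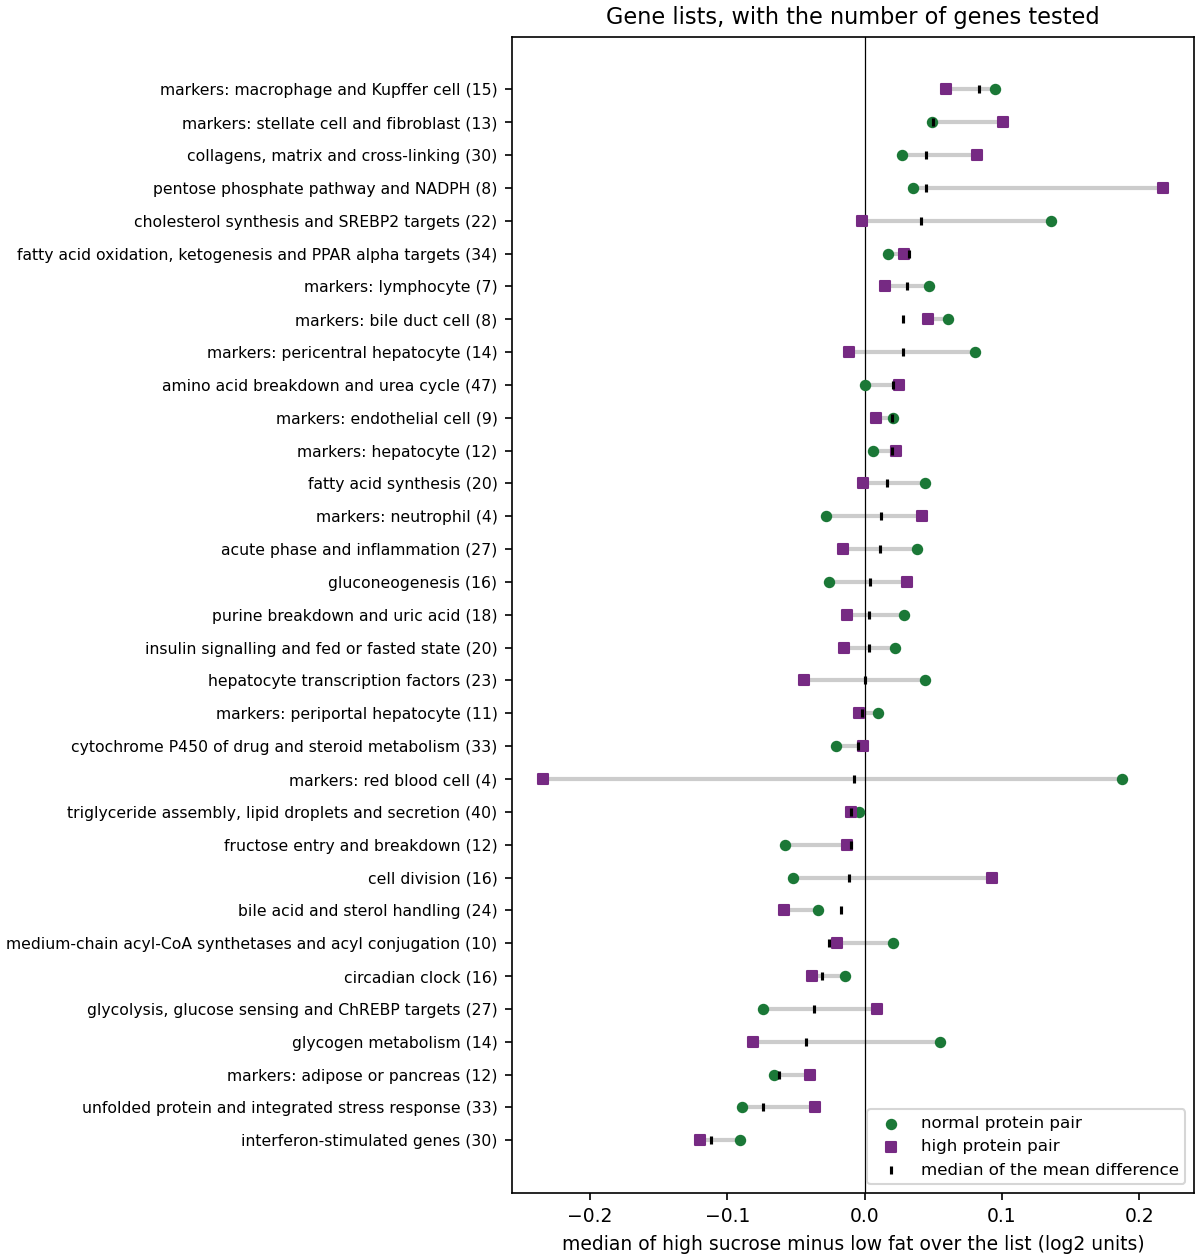
Median difference, high sucrose minus low fat, over each of 33 gene lists in log2 units, for the normal protein pair (green circles), the high protein pair (purple squares) and the mean of both (black ticks), with the number of genes tested in brackets. The interferon-stimulated genes are lowest at -0.11 and the macrophage markers highest at 0.08 by the mean of both, while the red blood cell markers lie at 0.19 and -0.23 in the 2 pairs.

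The remaining lists had median mean differences between -0.06 and 0.03. In the amino acid breakdown and urea cycle list 13 of 47 genes tested were higher in both pairs and 7 lower, and in the insulin signalling and fed or fasted state list 5 of 20 and 4. Igfbp1, a binding protein of insulin-like growth factors that insulin represses, stood at 0.32 ± 0.095 SE, with 0.44 and 0.20. In the circadian clock list 3 of 16 were higher in both pairs and 5 lower, with the clock output factor Dbp at -0.20 ± 0.085 SE. In the acute phase and inflammation list 4 of 27 were higher and 3 lower, and among cytochromes P450 5 of 33 and 9. None of these lists had a member at 1.2-fold in both pairs. Zonal hepatocyte markers were at opposite signs for 8 of 14 pericentral and 8 of 11 periportal genes.

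The probe sets at 1.2-fold in both pairs include ones without a single gene symbol. Of 180 probe sets at that size, 74 higher (0.362% of 20450) and 106 lower (0.518%), 131 had no single symbol in the platform annotation and are unnamed here. Over the whole array, 13581 of 29214 probe sets were not listed and 323 had several symbols. The share without a single symbol among the 20450 tested was not counted. At 1.5-fold in both pairs stood 5 higher (0.0244%) and 7 lower (0.0342%). By the smaller of its 2 differences the widest was probe set 10700161, which read 7.69 on NP, 6.15 on NP-HS, 8.27 on HP and 6.53 on HP-HS (-1.64 in the mean). Probe set 10700793 read 5.67, 4.46, 6.22 and 4.55 in that order (-1.45), with both sucrose arrays below the filter of log2 5.14. Neither overlapped between the diets. With fat added they read 6.70 and 4.79 at normal protein and 7.90 and 5.35 at high protein. Both passed in the fit to the 4 arrays alone, with limma adjusted p of 0.00692 and 0.032. By the same measure the widest on the higher side were probe sets 10700870 and 10701443, with mean differences of 0.86 and 0.84. Probe set 10700167 had a higher mean of 1.02, from 0.67 at normal protein and 1.37 at high protein.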

How the data were processed

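Liver RNA (TRIzol, integrity number at least 7.0, 1500 ng per rat, 5 rats pooled, 100 ng labelled) was hybridised to Affymetrix whole-transcript arrays, per the labels' protocols. The deposited values are log2 levels per probe set, summarised by RMA per the submitters' processing notes; the settings of RMA are not stated there, and diet composition is not used here.

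Of 29214 probe sets, 15310 had 1 gene symbol in the platform annotation, 323 several and 13581 were not listed; a gene was read from its probe set with the highest mean. Probe sets with a mean above the 30th percentile (log2 5.14), 20450, were fitted in limma 3.58.1 (R 4.3.3) over the 6 arrays, with protein level and background as terms, 2 residual degrees of freedom and Benjamini-Hochberg adjustment. The protein term is what pairs the arrays. Since no diet was replicated, a p-value reflects only how these arrays vary. With 2 pairs, an exact sign-flip test cannot go below p = 0.5.

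The text names the 15 higher and 15 lower genes with the largest smaller difference and the 5 each with the largest mean. Zfp61, ranked 5 by mean on the higher side, is named only here. Zfp61 had 0.88 at normal protein and 0.08 at high protein (mean 0.48 ± 0.198 SE). Its fitted mean without the NP array was 0.08. Also named are members of 33 gene lists (717 symbols, 595 genes tested). The members and lists were chosen with earlier results of these data known. The fit was tested on simulated data. Alternatives were other filters, the 4 arrays alone, eBayes with trend or robust, centring, cyclic loess, no protein term and leaving out each array.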

Additional observations from a re-analysis of the deposited data

Results flagged for a closer look

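Some values lay on opposite sides at the 2 protein levels, each from 1 array against 1 array; the difference between the pairs was not tested, since an interaction leaves no residual degrees of freedom. Hamp, which encodes the iron hormone hepcidin, stood at 0.69 with sucrose at normal protein and -2.27 at high protein; it read 9.03 on NP, 9.72 on NP-HS, 9.21 on HP and 6.94 on HP-HS, so the HP-HS array lay apart below the others. Rgs16, a regulator of G protein signalling, stood at 0.48 and -1.24, and its HP-HS array was again the lowest of the 6, at 9.52. The protease inhibitor A2m stood at 0.69 and -0.78. Some enzymes ran the other way, being lower with sucrose at normal protein and higher at high protein. Among them were the retinal dehydrogenase Aldh1a1 at -0.54 and 0.71, the cytochrome Cyp2b2 at -0.45 and 0.49, and the fatty acid elongase Elovl6 at -0.56 and 0.40.

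The medians of 3 gene lists had opposite signs with a size of 0.05 or more in each pair. Further lists had opposite signs at smaller sizes, such as hepatocyte transcription factors at 0.044 and -0.044. The median of glycogen metabolism was 0.055 at normal protein and -0.081 at high protein. That of cell division was -0.052 and 0.093, and that of the 4 red blood cell markers was 0.187 and -0.234. Among the red cell genes, the beta globin Hbb stood at 0.29 and -0.28 and the haem synthesis enzyme Alas2 at 0.27 and -0.20.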

How the results depend on the processing

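No probe set passed with any filter, with eBayes trend or robust, with arrays centred, with cyclic loess or without the protein term; 3 passed with the 4 arrays alone, and leaving out 1 array gave 0 to 3: 3 without NP-HS-HF or without HP-HS-HF, 1 without NP-HS (adjusted p = 0.0474 by limma) and 0 without NP, HP or HP-HS. The lowest adjusted p ranged from 0.00692 to 1. The arrays are paired by protein level, which is a term of the model; the labels carry no replicate numbers. The 74 higher, 106 lower and 285 opposite probe sets became 476, 549 and 1665 at 1.1-fold, 5, 7 and 18 at 1.5-fold, 161, 188 and 493 without a filter, and 37, 54 and 181 above the 50th percentile. Lists with a median of 0.1 or more in size numbered 1, with 2 in the normal protein pair alone and 4 in the high protein pair alone. Of 697 alternative values of 51 named genes, 692 kept direction and call. Another 3, all of Ly6al, changed call, but they are 1 and the same fit. Leaving out either fat-containing array gives the same fit as the 4 arrays alone. That fit, the filters, the eBayes settings and the protein term cannot move the mean difference, so keeping direction there was fixed in advance. Leaving out 1 array, Slc25a30 ranged from -1.13 to 0.1 (without NP) and Cish, a suppressor of cytokine signalling, from -1.47 to 0.1 (without HP-HS). Of the 51 genes, the mean difference moved by over 1.5 times in 16 without NP, all narrower, in 9 without HP-HS, 10 without HP and 7 without NP-HS. Without HP-HS, Atf3 went from -0.42 to -0.16 and RT1-N2 from -0.53 to -0.22, and without NP, Ifit1 from -0.70 to -0.13. The causes were not tested. Of 198 alternative list medians 20 moved. Direction counts in both pairs could not be had without an array of either pair. The median level of the 47 genes was 6.68 and that of all named genes 7.47.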
